A study of Mus musculus with 31 samples.

Results

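CD4+ and CD8+ T cells of the choroid plexus were compared in mice housed in an enriched environment (EE). The comparison used the 16 EE libraries among the 31 libraries of the study, 9 of CD4+ cells and 7 of CD8+ cells, chosen by the cell type and housing in their names, over all 485 genes of the table. The mice were female C57BL6/J that lived from 4 weeks of age for 4 weeks in a cage of 9120 cm2 holding 12 to 15 mice, furnished with wheels, toys and tunnels that were exchanged. The other 15 libraries (8 CD4 and 7 CD8) came from standard housing (SE, smaller and unfurnished cages) and were used only to ask whether a difference was particular to EE. Each library was made from 9 to 17 cells that were sorted as CD45+ CD11b- CD3+ and as CD4+ or CD8+, lysed directly and counted with unique molecular identifiers (UMIs, which count each captured transcript once). Titles also carry a first number (1 or 2), whose meaning the labels do not give, and an animal number. The animals that an experiment took from an environment shared a cage, and 5 EE mice gave a library of each cell type.

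CD4+ T cells recognise peptides on MHC class II and mostly help other immune cells through cytokines. CD8+ T cells recognise peptides on MHC class I and can kill the cell that shows them, for which they keep a set of granule proteins and chemokines. CD4 and CD8 are the coreceptors that bind the MHC molecule beside the T cell receptor, and RUNX factors hold the CD8 programme in place during T cell development. The choroid plexus secretes cerebrospinal fluid into the brain ventricles, and its stroma holds memory T cells.

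Few genes separated the cell types in EE. With limma on log2(normalised count + 1) and the first number as a term, 7 of 485 genes (1.44%) passed an adjusted p of 0.05, with 3 higher and 4 lower in CD4+ cells. Of these, Cd4, Cd8a and Cd8b1 are the genes of the sorting markers, so their calls follow from how the libraries were made and are not findings. The remaining 4 were Ccl5 and Nkg7, both lower in CD4+ cells, and Malat1 and Ifi27l2a, both higher. The adjustment ran over all 485 genes, the sorting markers included. Over genes with a mean of at least 5, which leaves these markers out, Ifi27l2a was not called (limma adjusted p 0.0558). At an unadjusted p of 0.05 there were 65 genes (13.4%), 35 higher (7.22%) and 30 lower (6.19%) in CD4+ cells. Over all genes the median log2 difference was 0.016, and its standard error for a single gene ran from 0.15 to 0.62, with a median of 0.36.

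**Figure D1:**
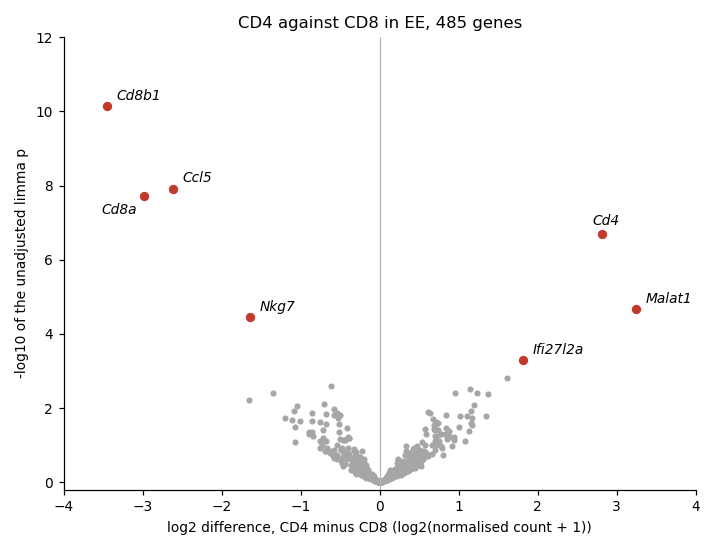
Log2 difference between CD4 and CD8 libraries in EE (x axis, CD4 minus CD8 on the log2(normalised count + 1) scale) against −log10 of the unadjusted limma p (y axis) for 485 genes, each a point. The 7 named red points passed an adjusted p of 0.05, 4 on the CD8 side and 3 on the CD4 side.

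Among the 4 genes called lower in CD4+ cells, sequence upstream of the gene was at hand for Cd8a and Nkg7 in the RefSeq promoter table (build GRCm38.p6), and is shown because both genes separated the cell types. Each line gives the 150 bases before the gene as annotated in GENCODE M21 on its own strand, which is the plus strand for both, 5′ to 3′. The Cd8a window is chr6:71373277-71373426, and the Nkg7 window is chr7:43436923-43437072. Capitals mark a match to the RUNX motif TGTGGT, searched on both strands.
Cd8a: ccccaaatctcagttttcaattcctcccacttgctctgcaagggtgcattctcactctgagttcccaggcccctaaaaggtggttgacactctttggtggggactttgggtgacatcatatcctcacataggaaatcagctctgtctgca
Nkg7: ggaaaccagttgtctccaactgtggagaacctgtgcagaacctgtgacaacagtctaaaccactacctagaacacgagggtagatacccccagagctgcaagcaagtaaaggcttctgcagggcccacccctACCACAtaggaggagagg

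The Nkg7 window held 1 match, on the opposite strand and starting 18 bases before the end of the window, and the Cd8a window held 0 matches. Of 32851 windows of 150 bases before a RefSeq start, 2759 (8.4%) held the motif. A match says only that these letters stand there.

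The coreceptor genes were among the called genes, and their levels are given here only as a description, without p-values. The cells were sorted on their proteins, and CD4 samples in which Cd8a or Cd8b was detected were excluded by the authors. The absence of Cd8a and Cd8b1 from the CD4 libraries therefore cannot check the labels. Cd4 (chromosome 6, 124864692 to 124888221, GRCm38) had normalised counts of 4.57, 18.9, 5.30, 10.0, 8.81, 4.79, 4.78, 5.80 and 1.23 in CD4 replicates 1 to 9, from 1 to 16 UMIs, and 0 UMIs in all 7 CD8 libraries. Against a floor of 3 UMIs per library, this makes its mean in the CD4 group at least 2.30-fold higher. Cd8a (chromosome 6, 71373427 to 71379173) had normalised counts of 14.6, 8.08, 6.65, 2.05, 15.0, 5.49 and 5.89 in CD8 replicates 1 to 7, with as little as 1 UMI in replicate 4. Cd8b1 (chromosome 6, 71322788 to 71337494), the other chain of the CD8 dimer, had 6.92, 11.1, 5.87, 16.4, 11.5, 7.55 and 9.82 in the same libraries. Both CD8 genes had 0 UMIs in all 9 CD4 libraries, so their CD8 means were higher by at least 2.14-fold (Cd8a) and at least 2.56-fold (Cd8b1). Every EE library thus carried the transcripts of its label and none of the other coreceptor.

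The remaining 14 genes of T cell receptor signalling and pan-lymphocyte markers in the table did not separate the cell types at an unadjusted p of 0.05, where 13.4% of all genes did. Among the CD3 chains, Cd3g was at 19.5 ± 7.80 (SD, n = 9) normalised counts in CD4 and 15.5 ± 4.48 (n = 7) in CD8 libraries. Cd3d was at 8.28 ± 2.89 and 10.8 ± 3.00, and Cd247, the zeta chain, at 5.60 ± 2.26 and 5.15 ± 2.12. The constant region Trbc2, which shares 48.5% of its 31-base words with Trbc1 and is uncertain, was at 5.55 ± 3.61 and 4.29 ± 1.93. The kinase Lck, which CD4 and CD8 carry to the receptor, was at 12.6 ± 6.89 and 8.54 ± 2.20. The adaptor Lat was at 10.4 ± 4.07 and 6.97 ± 2.90, and Skap1 at 4.84 ± 1.29 and 6.34 ± 2.42. Ptprc, which encodes CD45, was at 10.98 ± 5.24 and 7.04 ± 2.96, a log2 difference of 0.45 that was 1.07 within first number 1 and -0.28 within number 2. The other surface and membrane genes, Cd2, Cd52, Cd53, Thy1, Laptm5 and Ptprcap, had mean levels from 5.72 to 24.0 in CD4 and from 6.12 to 20.9 in CD8 libraries. The levels of these 14 genes overlapped between the groups, as did those of 481 of the 485 genes. Only Cd4, Cd8a, Cd8b1 and Ccl5 (0.825%) had groups that did not overlap.

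Cytotoxic and effector genes held both called genes on the CD8 side beyond the coreceptors. Ccl5 and Nkg7 were lower in CD4+ cells, by 2.61 and 1.64 on the log2 scale, and all 5 mice with both cell types showed that direction for both genes. Of the 7 genes of this list in the table (28 were listed), 2 passed the test, both lower in CD4+ cells. At an unadjusted p of 0.05, 4 of the 7 were lower and 0 higher, where 6.19% of all genes were lower. The median log2 difference of the 7 was -1.36, against 0.016 over all genes. Like the other gene lists, this list was chosen with earlier results of these data known. It includes Ccl5 and Nkg7, so the count and the median do not show a cytotoxic programme. The granzyme and perforin genes of the list were not in the table, so nothing can be said of them.

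Ccl5 (chromosome 11, 83525778 to 83530518), a chemokine that memory CD8+ T cells store and release, had normalised counts of 4.57, 10.8, 7.06, 12.7, 11.7, 8.38, 4.44, 15.9 and 3.70 in CD4 replicates 1 to 9. In CD8 replicates 1 to 7 it had 54.6, 48.9, 20.7, 63.6, 43.8, 66.6 and 94.3. The highest CD4 library lay below the lowest CD8 library. The means were 8.82 ± 4.26 (SD, n = 9) and 56.1 ± 22.7 (SD, n = 7), 6.36-fold higher in CD8 libraries. The log2 difference, CD4 minus CD8, was -2.61 (standard error 0.31, 95% interval -3.25 to -1.98, limma adjusted p 2.92e-06). It was -2.85 within first number 1 and -2.34 within number 2, and the adjusted p was at most 2.91e-05 when any 1 library was left out. Within the 5 mice the log2 difference ran from -4.34 to -1.21. Ccl5 was thus the 1 gene outside the sorting markers whose groups stood fully apart.

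Nkg7 (chromosome 7, 43437073 to 43438249, upstream sequence above) encodes a membrane protein of cytotoxic granules. Its normalised counts were 7.62, 18.9, 3.53, 2.01, 11.7, 5.39, 6.14, 4.35 and 14.8 in CD4 replicates 1 to 9 and 23.1, 23.4, 23.1, 18.5, 27.7, 13.0 and 23.6 in CD8 replicates 1 to 7. CD4 replicates 2 and 9 reached above the lowest CD8 library, and the other 7 CD4 libraries lay below it. The means were 8.28 ± 5.69 (SD, n = 9) and 21.8 ± 4.67 (SD, n = 7), with a log2 difference of -1.64 (standard error 0.32, limma adjusted p 0.00276). The difference was -1.30 within number 1, where the adjusted p was 0.425, and -2.03 within number 2, where it was 0.00477. The test of the difference between the numbers gave -0.73 (adjusted p 0.906). In the 5 mice the log2 difference ran from -3.02 to -0.61.

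Xcl1 and Ctsw had log2 differences near that of Nkg7 with more spread, and neither passed the test. Xcl1, a chemokine for cross-presenting dendritic cells, was at 0 UMIs in 4 of 9 CD4 libraries and at 1.45 to 7.62 normalised counts in the other 5, and at 1.37 to 15.7 in the 7 CD8 libraries. The log2 difference was -1.66 (standard error 0.55, adjusted p 0.192), with CD4 below CD8 in 5 of 5 mice. Ctsw (cathepsin W, a protease of cytotoxic lymphocytes) was at 0 to 10.2 in CD4 and 9.82 to 23.1 in CD8 libraries. Its log2 difference was -1.36 (standard error 0.42, adjusted p 0.142, 0.0398 with DESeq2 on the UMI counts), and 4 of 5 mice had it lower in CD4. With the log2 UMI total of each library as a covariate, both genes passed, with adjusted p of 0.0301 for Xcl1 and 0.0448 for Ctsw.

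The other members did not differ this way. Ctsd, a lysosomal protease that shares 33.2% of its 31-base words with Gm49369 and is uncertain, had 8.14 ± 3.48 in CD4 libraries and 12.5 ± 6.58 in CD8 libraries (log2 difference -0.54, adjusted p 0.485). Srgn, the proteoglycan core of secretory granules, was at 13.5 ± 8.15 and 11.4 ± 3.01. Ifng, the cytokine of both TH1 and CD8+ effector cells, was at 0 to 40.6 in CD4 and 1.15 to 9.78 in CD8 libraries. Its log2 difference was 0.80 (standard error 0.58, adjusted p 0.611), 1.66 within number 1 and -0.19 within number 2.

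**Figure D2:**
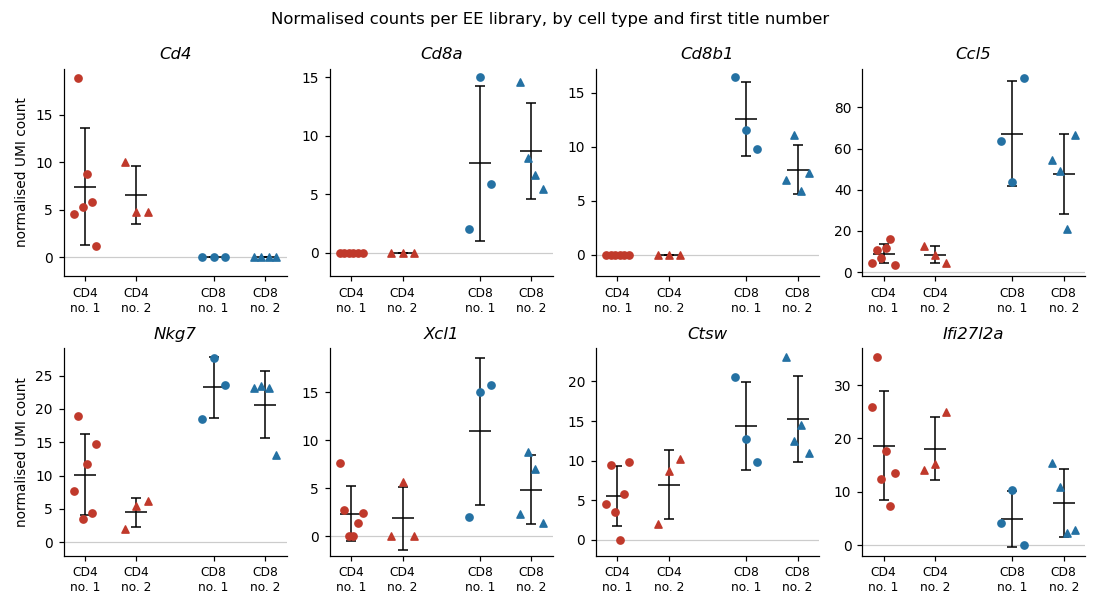
Normalised UMI count (y axis) in each of the 16 EE libraries (points), split by cell type and first title number (circles 1, triangles 2), with the mean and SD of each set as black bars, for 8 genes. Cd4, Cd8a, Cd8b1 and Ccl5 do not overlap between CD4 and CD8 libraries, while Nkg7, Xcl1, Ctsw and Ifi27l2a do.

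Genes linked to helper or regulatory CD4+ cells were few in the table, and none passed the test. Of 21 listed genes, 3 were measured, and 2 of them were higher in CD4 libraries at an unadjusted p of 0.05, where 7.22% of all genes were. The list was chosen with earlier results of these data known. It holds Odc1, which also stands on the survival, cycle and metabolism list, so this count does not show a helper programme. Odc1, which makes the polyamine putrescine and shares 31.3% of its 31-base words with other genes, was the gene just outside the threshold. Its normalised counts were 4.57, 0, 12.4, 10.0, 2.94, 9.28, 7.17, 5.80 and 7.41 in CD4 replicates 1 to 9 and 3.85, 2.18, 1.96, 0, 1.15, 6.18 and 0 in CD8 replicates 1 to 7. The log2 difference was 1.61 (standard error 0.45, adjusted p 0.0947), and CD4 lay above CD8 in 5 of 5 mice. It passed with edgeR (0.0399), with DESeq2 (0.0112) and without CD4 replicate 2 (0.00552). With each mouse as a fixed block over the paired mice alone it passed (0.0443), but not with mouse as a random block over all libraries.

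Tnfrsf18, which encodes the costimulatory receptor GITR, was at 12.2, 1.35, 15.9, 4.69, 0, 5.69, 5.80, 14.5 and 12.3 in CD4 replicates 1 to 9 and between 1.31 and 2.31 in all CD8 libraries. The CD8 values were uniformly low and 7 of 9 CD4 values lay above all of them. The log2 difference was 1.17 (standard error 0.50, adjusted p 0.289), and the gene passed with edgeR (0.0169), with DESeq2 (0.00529) and with limma without CD4 replicate 5 (0.0376), the shallowest library at 1910 UMIs. Icos, a costimulatory receptor, had 8.35 ± 5.40 in CD4 libraries and 5.26 ± 2.49 in CD8 libraries.

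Homing, adhesion and tissue residence genes were mixed. Of 37 listed genes 19 were in the table, 0 passed the test, and at an unadjusted p of 0.05 there were 2 higher and 1 lower in CD4 libraries, where 7.22% of all genes were higher and 6.19% lower. The median log2 difference was 0.14, against 0.016 over all genes, with -0.17 within number 1 and 0.48 within number 2. Cd44, the hyaluronan receptor of memory T cells, had 5.51 ± 2.43 in CD4 libraries and 1.73 ± 1.53 in CD8 libraries (log2 difference 1.24, standard error 0.39, adjusted p 0.142), higher in CD4 in 5 of 5 mice. The count models called it (adjusted p 0.0153 with edgeR and 0.00804 with DESeq2). Its log2 difference was 0.51 within number 1 and 2.09 within number 2, the latter with an adjusted p of 0.0198. Selplg, the PSGL-1 ligand of selectins, was at 1.77 to 8.69 in CD4 and 6.92 to 13.0 in CD8 libraries (log2 difference -0.86, adjusted p 0.246), lower in CD4 in 5 of 5 mice.

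The chemokine receptor Cxcr6 had 7.51 ± 3.57 in CD4 libraries and 3.98 ± 1.94 in CD8 libraries (log2 difference 0.77, standard error 0.37, adjusted p 0.369, CD4 above CD8 in 3 of 5 mice). Cxcr3, another chemokine receptor of effector T cells, was at 0 UMIs in 3 CD4 libraries and at 2.61 ± 2.39 in CD4 against 4.12 ± 1.31 in CD8 libraries (-0.68, adjusted p 0.572). The egress receptor S1pr1 was at 4.67 ± 3.77 and 1.99 ± 2.06 (0.75, adjusted p 0.430), and its activator Klf2 at 3.33 ± 2.34 and 4.56 ± 2.62. Ly6c2, which shares 23.7% of its 31-base words with other genes and is a mark of memory CD8+ cells, was at 6.25 ± 4.77 and 12.2 ± 8.26 (-0.89, adjusted p 0.371). Ly6a was at 6.55 ± 3.34 and 3.73 ± 3.16 (0.94, adjusted p 0.430), Klf6 at 3.37 ± 0.815 and 2.21 ± 1.83 (0.66, adjusted p 0.485) and Crip1 at 18.6 ± 5.34 and 13.9 ± 7.14 (0.44, adjusted p 0.534).

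The integrin chains Itgb2 and Itgb7 had close means, at 9.02 ± 3.71 and 8.54 ± 2.23 for the first and 9.48 ± 5.70 and 8.46 ± 4.16 for the second. Rgs1 and Rgs2, regulators of G protein signalling, were at 3.71 ± 1.83 and 4.34 ± 2.49, and at 6.96 ± 3.90 and 5.67 ± 4.42. Lgals1 (galectin-1) was at 13.1 ± 4.79 and 14.5 ± 7.06. The calcium-binding S100 genes of effector cells also overlapped, with S100a4 at 15.1 ± 7.04 and 12.3 ± 4.65, S100a6 at 8.92 ± 3.44 and 13.0 ± 5.23 (-0.45, adjusted p 0.611), S100a10 at 8.70 ± 4.44 and 6.13 ± 2.404 and S100a11 at 6.33 ± 6.21 and 4.20 ± 1.76. None of these genes separated the cell types.

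Of the interferon-induced genes, 1 of the 10 in the table (28 were listed) passed the test, Ifi27l2a, higher in CD4 libraries. At an unadjusted p of 0.05, 3 were higher and 1 lower, where 7.22% of all genes were higher and 6.19% lower, and the median log2 difference was 0.47, against 0.016 over all genes. Ifi27l2a (chromosome 12, 103442167 to 103443680) encodes a small membrane protein induced by type I interferon. Its normalised counts were 25.9, 35.2, 12.4, 14.1, 17.6, 15.3, 24.9, 7.24 and 13.6 in CD4 replicates 1 to 9 and 15.4, 10.9, 2.35, 4.11, 10.4, 2.74 and 0 in CD8 replicates 1 to 7. The groups overlapped between 7.24 and 15.4, and 4 of 5 mice had it higher in CD4. The means were 18.5 ± 8.61 (SD, n = 9) and 6.55 ± 5.67 (SD, n = 7), with a log2 difference of 1.82 (standard error 0.45, adjusted p 0.0349), 2.18 within number 1 and 1.40 within number 2.

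This call was not stable. It was lost when any of 9 of the 16 libraries was left out, with adjusted p up to 0.161 without CD8 replicate 7, the library with 0 UMIs. It was also lost with each mouse as a fixed block over the paired mice alone (0.234), and kept with mouse as a random block over all libraries. Among genes with a mean of at least 5, without Cd4, Cd8a and Cd8b1, its limma adjusted p was 0.0558. The call was lost with edgeR (0.0533), a pseudocount of 0.5 (0.0655), no variance trend (0.0870) and cell number as a covariate (0.0527). Neither first number alone gave it (0.147 for number 1 and 0.230 for number 2). Other members were Ly6e, a membrane protein of lymphocytes (28.6 ± 9.21 in CD4 and 16.1 ± 7.42 in CD8 libraries, log2 difference 0.96, adjusted p 0.142), and Psme2, a subunit of the proteasome activator (7.47 ± 3.72 and 3.77 ± 1.70, 0.77, adjusted p 0.369, 33.5% of its 31-base words shared with Psme2b). Ly6e passed without CD4 replicate 5 (adjusted p 0.0373) and without CD8 replicate 5 (0.0283). Epsti1 lay on the CD8 side (2.33 ± 2.44 and 5.55 ± 2.75, -1.11, adjusted p 0.273). Irf1, a transcription factor that interferons induce, was at 3.47 ± 2.12 and 4.18 ± 2.35, Gbp4 at 5.65 ± 3.96 and 4.33 ± 2.97, Psmb8 at 13.3 ± 6.98 and 11.6 ± 6.44, Psme1 at 5.18 ± 3.67 and 5.56 ± 4.18, and Samhd1 at 6.20 ± 3.66 and 4.42 ± 5.15 (0.62, adjusted p 0.620).

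The MHC class I genes, which interferons also induce, showed 0 of 7 members at an unadjusted p of 0.05, where 13.4% of all genes were. Their median log2 difference was 0.091, against 0.016 over all genes. B2m, the shared light chain, had 68.6 ± 20.6 in CD4 libraries and 59.9 ± 15.8 in CD8 libraries. H2.Q6 (log2 difference -0.49, adjusted p 0.565), H2.T23 (0.70, adjusted p 0.565) and H2.Q7 (19.5 ± 8.18 and 22.8 ± 8.98) share 24.5% to 50.3% of their 31-base words with other genes of the family and are uncertain.

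**Figure D3:**
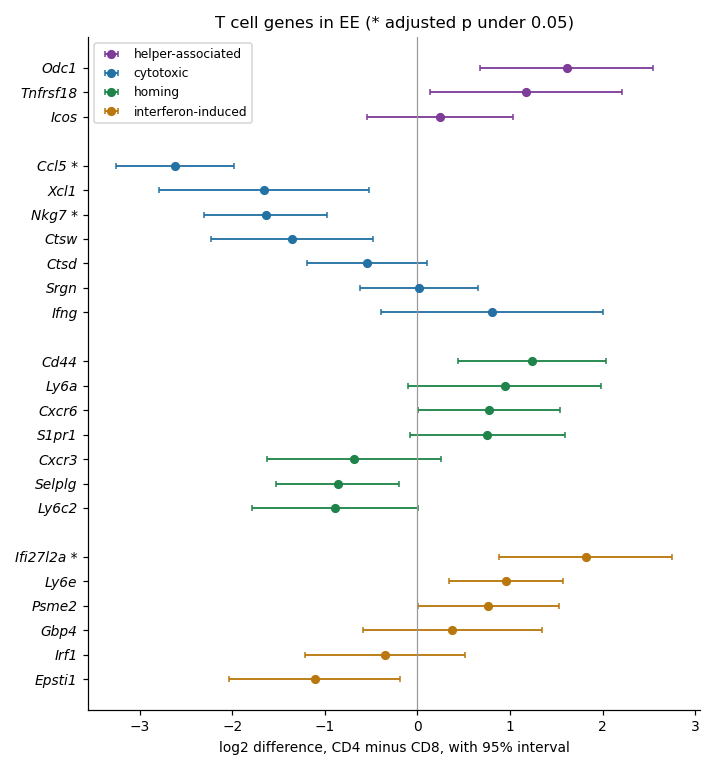
Log2 difference between CD4 and CD8 libraries in EE (x axis, points) with its 95% interval (bars) for 23 genes of 4 lists, all members of the helper-associated and cytotoxic lists, 7 of the homing list and 6 of the interferon-induced list. Ccl5, Nkg7 and Ifi27l2a, marked with an asterisk, passed an adjusted p of 0.05, and the intervals of Ctsd, Srgn and Ifng include 0.

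Malat1 was the largest difference on the CD4 side, and it belonged to libraries with first number 1. Malat1 (chromosome 19, 5795690 to 5802672, overlapping Gm27694 and Gm37376) is a long noncoding RNA that stays in the nucleus. CD4 replicates 1, 2, 3, 5, 8 and 9, with number 1, had normalised counts of 249, 250.2, 215, 49.9, 187 and 196. CD4 replicates 4, 6 and 7, with number 2, had 8.04, 4.79 and 4.10. The CD8 libraries had 1.96 to 3.46 with number 1 and 1.96 to 8.23 with number 2. The 6 CD4 libraries with number 1 thus stood above all other libraries, and the 3 with number 2 overlapped the CD8 libraries.

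Over all 16 libraries the log2 difference was 3.25 (standard error 0.62, adjusted p 0.00202). Among libraries with number 1 it was 5.65 (adjusted p 1.29e-08), and among those with number 2 it was 0.45 (adjusted p 0.712). The test of the difference between the numbers gave -5.19 (standard error 0.65, adjusted p 1.65e-05), and Malat1 was the 1 gene of 485 (0.206%) called in that test. In the SE libraries, which are other mice, the 5 CD4 libraries with number 1 had 185 to 242 and the 3 with number 2 had 2.78 to 6.72, and no CD8 library was above 3.64. Depth also went with the first number, and its part in this pattern was not tested. With the log2 UMI total as a covariate in the CD4 against CD8 fit Malat1 was still called. The covariate was not added to the test between the first numbers, so that call does not bear on the pattern.

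The other listed noncoding RNAs did not follow the Malat1 pattern. Neat1 had 6.63 ± 4.47 normalised counts in CD4 and 8.81 ± 12.7 in CD8 libraries, with log2 differences of -1.05 within number 1 and 1.24 within number 2. Gas5 was at 8.35 ± 2.77 and 10.9 ± 5.91. The U3 small nucleolar RNAs Rnu3b4 (13.4 ± 7.61 and 9.13 ± 4.54) and Rnu3b3 (5.03 ± 3.77 and 5.10 ± 2.23) share all of their 31-base words with each other and are uncertain. Of the 5 genes of this list in the table, Malat1 alone had an unadjusted p under 0.05, where 13.4% of all genes had.

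After Malat1, the genes with the smallest p in the test of first numbers were Ubb, Ftl1, Eef2 and Hspa1a, and none passed it. Ubb, a ubiquitin gene, had a log2 difference of 1.05 within number 1 and -0.58 within number 2 (difference -1.62, adjusted p 0.158). Ftl1, the ferritin light chain, had 0.72 and -0.92 (difference -1.64, adjusted p 0.661), and Eef2, the translocase of translation, had -0.83 and 0.71 (difference 1.54, adjusted p 0.873). Ubb and Ftl1 share 50.3% and 57.7% of their 31-base words with other genes. Without CD4 replicate 5 this test called 3 genes, among them Ubb and Ftl1 (adjusted p 0.0204 for both), and without CD4 replicate 6 or CD8 replicate 5 it called 2 genes.

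**Figure D4:**
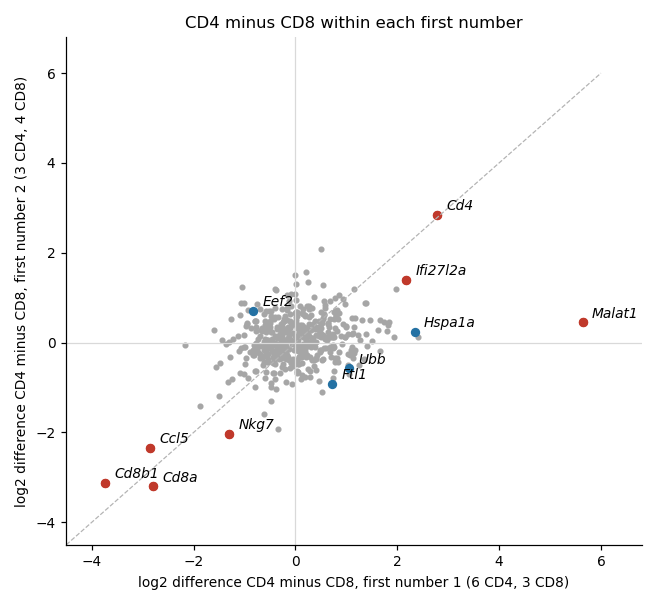
Log2 difference between CD4 and CD8 libraries within first number 1 (x axis, 6 CD4 and 3 CD8 libraries) and within first number 2 (y axis, 3 CD4 and 4 CD8 libraries), each point a gene, with a dashed line of equal values. Red points passed the test over all 16 libraries and blue points are the other 4 genes with the smallest p for a difference between the numbers. Malat1 lies far off the line, at 5.65 and 0.45.

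Heat shock and early response genes lay mostly above 0 in CD4 libraries. Of 23 members in the table (37 were listed) 19 had a positive log2 difference, as had 251 of all 485 genes. None passed the test (0 of 23), and 5 were higher and 0 lower at an unadjusted p of 0.05, where 7.22% of all genes were higher and 6.19% lower. The median was 0.30, against 0.016 over all genes, with 0.64 within number 1 and -0.044 within number 2. Junb, a subunit of the AP-1 transcription factor, ran from 11.7 to 86.6 in CD4 and from 5.68 to 21.9 in CD8 libraries (log2 difference 1.14, standard error 0.35, adjusted p 0.142, 5 of 5 mice). It passed with DESeq2 (0.0440) and without CD4 replicate 5 (0.0124). Hspa1a, an inducible HSP70 chaperone whose 31-base words are to 63.8% those of Hspa1b, so that it is uncertain, had a log2 difference of 1.38 (adjusted p 0.142, 5 of 5 mice).

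Hspa1a levels also went with the first number. In libraries with number 1 it was at 19.0 ± 10.97 in CD4 (n = 6) and 3.09 ± 2.69 in CD8 (n = 3), and with number 2 at 43.4 ± 28.3 (n = 3) and 33.5 ± 19.3 (n = 4). Its log2 difference of 2.34 among libraries with number 1 passed there (adjusted p 0.0175), that of 0.25 with number 2 did not, and the test between the numbers gave -2.10 (adjusted p 0.873). Hspa1a passed without CD4 replicate 7 (0.00420) and with each mouse as a fixed block over the paired mice alone (0.0379). With mouse as a random block over all libraries it did not pass. The early gene Ier2 had 9.40 ± 4.68 in CD4 libraries and 9.23 ± 2.37 in CD8 libraries, and the mitochondrial chaperonin partner Hspe1 at 5.32 ± 4.21 and 8.91 ± 6.46.

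Ribosomal protein transcripts took on average a smaller share of the UMIs in CD4 than in CD8 libraries. Of 98 such symbols in the table, 78 had a negative log2 difference, 0 passed the test, and 13 were lower and 0 higher at an unadjusted p of 0.05, where 6.19% of all genes were lower. Among them, 11 of the 18 pseudogene and retrogene symbols were negative (median -0.055), as were 67 of the other 80 (median -0.25). The median was -0.23, against 0.016 over all genes, with -0.27 within number 1 and -0.14 within number 2, and it was -0.27 with all libraries scaled to the same total. The share of UMIs was 26.7% ± 3.38 (SD, n = 6) in CD4 and 33.5% ± 3.69 (n = 3) in CD8 libraries with number 1, and 33.0% ± 1.56 (n = 3) and 38.1% ± 3.83 (n = 4) with number 2. Its range was 23.0% to 34.7% in CD4 and 29.3% to 41.8% in CD8 libraries, which overlap. Rpl36 (23.7 ± 6.55 and 33.3 ± 8.01, log2 difference -0.61, adjusted p 0.136) and Rpl13 (28.9 ± 9.57 and 46.3 ± 12.1, -0.70, adjusted p 0.229) were lower in CD4 in 5 of 5 mice, and DESeq2 called both (0.00804 and 0.0202). They share 94.1% and 26.8% of their 31-base words with other loci. On the other side the lowest p belonged to Rps16.ps2 (log2 difference 0.49, adjusted p 0.590), a pseudogene whose words all occur elsewhere, and Rpl12 (7.21 ± 4.94 and 5.20 ± 2.16).

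Of 12 translation factors, 1 was lower and 0 higher at an unadjusted p of 0.05, where 6.19% of all genes were lower and 7.22% higher. Their median log2 difference was 0.032, against 0.016 over all genes. Eef1b2, a subunit of the elongation factor exchange complex, had a log2 difference of -1.19 (adjusted p 0.260), which was -2.18 within number 1 and -0.04 within number 2. Eef1a1, which shares 49.8% of its 31-base words, was at 39.1 ± 13.5 and 50.1 ± 8.92 (-0.30, adjusted p 0.580). Eif3f (7.68 ± 3.85 and 7.80 ± 4.36) and Eif1 (16.2 ± 5.38 and 13.5 ± 4.06) overlapped between the groups.

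**Figure D5:**
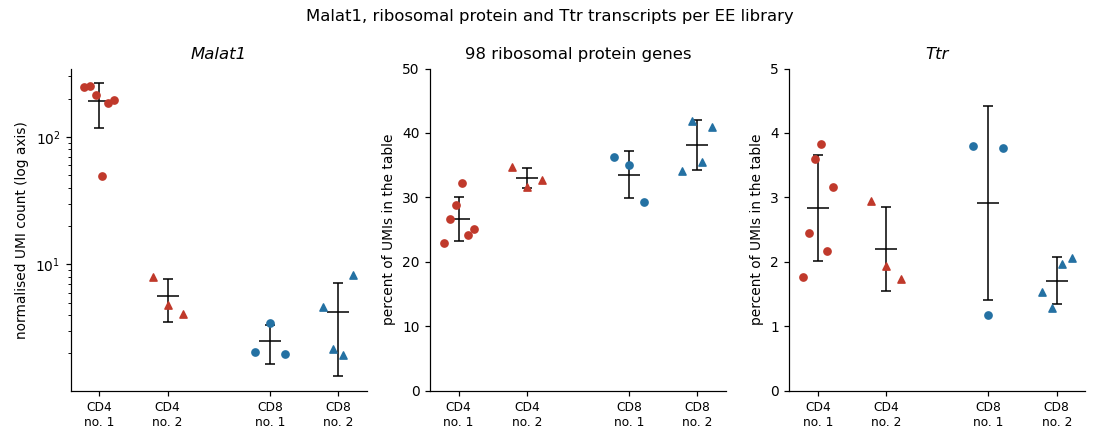
Malat1 normalised count (left, log axis), percent of UMIs in the 98 ribosomal protein symbols, pseudogenes included (middle), and percent of UMIs in Ttr (right) in each EE library (points), by cell type and first title number, with the mean and SD of each set as black bars. Malat1 is high in the 6 CD4 libraries with number 1, the ribosomal share is lower in CD4 than in CD8 libraries on average within each number, and Ttr is present in all libraries.

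Metabolic and structural genes gave no called difference, and their counts at an unadjusted p of 0.05 stand beside 7.22% higher and 6.19% lower over all genes. Of 13 mitochondrially encoded genes, 1 was higher in CD4 libraries at an unadjusted p of 0.05, mt.Rnr2, a ribosomal RNA of mitochondria (40.3 ± 13.7 and 23.6 ± 14.1, log2 difference 0.70, adjusted p 0.289). Its partner mt.Rnr1 was at 16.5 ± 8.96 and 10.6 ± 17.1 (0.70, adjusted p 0.430), and mt.Atp6 (11.2 ± 6.20 and 11.4 ± 4.34) and mt.Co3 (13.1 ± 5.49 and 13.6 ± 5.47) had close means. Of 32 nuclear genes of the respiratory chain and ATP synthase, 2 were higher and 2 lower at that level. They were the complex IV subunit Cox6b1 (0.73, adjusted p 0.286) and Ndufv3 (0.69, adjusted p 0.295) on the CD4 side, and Ndufa4 (-0.89, adjusted p 0.352) and Atp5g2 (-0.72, adjusted p 0.329) on the CD8 side. Of 25 actin cytoskeleton genes, 3 were higher and 1 lower. Among them Lcp1, an actin bundler of leukocytes, had 0.69 (adjusted p 0.329), the myosin light chain Myl12b 0.70 (adjusted p 0.329), the actin capping subunit Capzb -1.01 (adjusted p 0.277), and Arhgdib was at 22.0 ± 13.2 and 24.6 ± 5.15. Of 12 survival, cycle and metabolism genes, 2 were higher and 0 lower. They were Odc1, counted on the helper list as well, and the lactate dehydrogenase Ldha (9.09 ± 3.34 and 5.83 ± 2.32, 0.72, adjusted p 0.282, 5 of 5 mice). The survival gene Bcl2 had -0.59 (adjusted p 0.620) and Aldoa was at 5.84 ± 4.17 and 5.32 ± 1.57.

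Transcripts of other cell types were present in the sorted pools of both cell types. Ttr, the transthyretin gene that marks choroid plexus epithelium, took 1.73% to 3.82% of the UMIs in CD4 and 1.17% to 3.80% in CD8 libraries. Its normalised counts were 162 ± 47.5 and 135 ± 73.2, and those of Enpp2, which is also strong in that epithelium, were 20.1 ± 5.57 and 27.1 ± 29.0. CD8 replicates 4 and 7, both with first number 1, stood apart in Enpp2. They had 71.9 and 66.8, where the other 5 CD8 libraries had 6.18 to 13.8 and the CD4 libraries 13.7 to 30.0. For Ttr they had the highest normalised counts of all 16 libraries, at 240.2 and 236, with CD4 replicate 3 close at 233. As a share of UMIs, Ttr was highest in CD4 replicate 5, at 3.82%. Of 13 listed epithelial markers these 2 were measured, and 0 of 2 had an unadjusted p under 0.05, where 13.4% of all genes had. Of 14 myeloid markers Cst3, which epithelium also expresses, was measured (6.40 ± 2.58 and 10.7 ± 7.28, log2 difference -0.75, adjusted p 0.282, lower in CD4 in 5 of 5 mice). None of the markers listed for B cells, NK cells and erythrocytes was in the table, so nothing can be said of them.

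No difference between the cell types was shown to be particular to EE. The test of the difference between EE and SE over 31 libraries called 0 of 485 genes (0%) with limma, with 18 at an unadjusted p under 0.05, and edgeR and DESeq2 also called 0, with 13 and 15 at that level. In SE, Ccl5 was at 5.01 ± 5.93 in CD4 (n = 8) and 40.8 ± 11.8 in CD8 (n = 7) libraries, a log2 difference of -3.14 beside -2.61 in EE (difference 0.52, standard error 0.50). Nkg7 had -2.16 in SE beside -1.64 in EE, and Ifi27l2a 1.76 beside 1.82. The smallest p of this test belonged to Selplg (-0.86 in EE and 0.51 in SE, difference -1.40, standard error 0.46), followed by Arhgdib (-0.39 and 0.70, difference -1.09), Akr1a1, an aldehyde reductase (-0.68 and 0.71, difference -1.39), Cxcr3 (-0.68 and 1.05, difference -1.77) and Capzb (-1.01 and 0.48, difference -1.52), each with an adjusted p of 0.939. SE CD8 replicates 5 and 6 have the same first number and animal number, so the 7 SE CD8 libraries stand for 6 mice. With that pair averaged, Ccl5 in SE CD8 was at 40.7 ± 12.8 (SD, n = 6 mice), and 0 genes were called without either library or with mouse as a random block.

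Cell number and UMI total showed no difference between the cell types past the threshold, which does not show that they were equal. Depth went with the first number. CD4 libraries held 12.4 ± 2.24 sorted cells (SD, n = 9) and CD8 libraries 13.9 ± 2.48 (n = 7), a difference of -1.14 cells within first numbers (exact permutation test, two-sided p 0.377). The summed UMIs of the 485 genes ran from 1910 to 20140 in CD4 and from 3083 to 26395 in CD8 libraries, with a log2 difference of 0.13 within first numbers (exact permutation test, two-sided p 0.665). With number 1 the totals were 4034 ± 1149.5 (n = 6) in CD4 and 3773 ± 1111 (n = 3) in CD8, and with number 2 15304 ± 5517 (n = 3) and 14351 ± 8656 (n = 4). In a principal component analysis the second component, with 15.9% of the variance, separated the cell types most. Cell type accounted for 70.3% of it and first number for 20.0%. Cell type accounted for 5.14% of the first component, which held 19.5% of the variance. CD4 replicate 5 scored 23.0 on that first component, and the next library, CD8 replicate 4, 7.66. In these pools, fewer cells with a transcript and less of it per cell cannot be told apart.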

How the data were processed

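The deposited table holds normalised counts, a signal that the authors made from UMI counts, divided per library by a DESeq2 size factor. Per the study's methods and the submitters' processing notes, adaptors were removed with cutadapt, reads mapped to mm10 with STAR (2.4.0a), UMIs counted with Drop-seq tools on an Ensembl GRCm38 gene model, and genes of low abundance removed. Such a filter leaves 485 genes, so UMI totals here are not full depths. All 31 columns of values were used. The UMI counts were recovered from the deposited values, 100% of which were whole within 0.01 UMI, and DESeq2 size factors recomputed from them matched. Over 57 pairs of libraries of a group, chi-square per degree of freedom ran from 1.28 to 4.35, so none was counted as a duplicate. A floor of 3 UMIs covers counting error only.

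EE libraries were compared with limma (3.58.1, R 4.3.3) on log2(normalised count + 1), which understates changes of low genes, with a variance trend, the first number as a term, two-sided, Benjamini-Hochberg adjustment over all genes and a threshold of 0.05. Log2 differences in the text carry this scale, and folds are ratios of mean normalised counts. Differences between first numbers and between housing were interaction terms. edgeR (4.0.16) and DESeq2 (1.42.0) on the UMI counts were alternatives, with other pseudocounts (0.5, 4), filters, scalings, covariates, blocks and each library left out. Scripts were tested on simulated data. Cell number and UMI total were tested by exact permutation within first numbers over 2940 arrangements.

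A mouse was taken as the housing, first number and animal number of the title together. The 5 EE mice with both cell types pair libraries by animal, and their deviations from the group means correlated with r from -0.11 to 0.27. Gene positions and shared 31-base words come from GENCODE M21 (GRCm38), and promoters from RefSeq. Members and gene lists were chosen with earlier results of these data known. Named are all called genes, all members of the coreceptor, helper, cytotoxic, homing, interferon, noncoding RNA and other-cell lists, the 2 lowest p per direction of the other lists, and the 5 lowest p of each interaction. Signed differences are printed for unadjusted p under 0.2 or for those 5. Values of 1 member of the interferon list are not reported here.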

Additional observations from a re-analysis of the deposited data

Results flagged for a closer look

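Malat1 differed between the first title numbers in its CD4 minus CD8 difference, which was 5.65 with number 1 and 0.45 with number 2 (interaction -5.19 on the log2 scale, adjusted p 1.65e-05). It was the 1 gene called there.

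Of 200 sets of values looked at (100 genes or library measures in each cell type), 15 held a library that stood apart. Its gap to its neighbour was large for the range of its group (Dixon's Q, on log2(normalised count + 1) for genes). The cut-offs give about 1 in 20 for normally distributed values. Low counts and values at 0 need not follow that, so the 15 sets were not weighed against this rate. CD4 replicate 5, the shallowest library, was lowest in 4 of them, with normalised counts of 0 for Bcl2 (others 3.29 to 16.05), 0 for Ier2 (5.36 to 14.5), 0 for Irf1 (2.01 to 7.06) and 2.94 for Laptm5 (10.1 to 28.0). Other CD4 libraries stood low for Odc1 (replicate 2, 0, others 2.94 to 12.4), Lgals1 (replicate 3, 3.53, others 8.81 to 17.4), S100a10 (replicate 3, 0, others 4.02 to 13.7), mt.Rnr2 (replicate 7, 11.6, others 30.4 to 57.9), Ly6a (replicate 8, 0, others 4.94 to 10.8) and S100a6 (replicate 8, 1.45, others 7.41 to 13.7). CD8 replicate 4, with 9 cells and 3083 UMIs, was lowest for Ptprcap (0, others 4.80 to 12.3) and Rgs1 (0, others 3.27 to 7.86), and highest for mt.Rnr1 (49.3, others 2.06 to 6.65). CD8 replicate 7 was highest for Cd2 (13.8, others 3.91 to 5.89) and for Neat1 (37.3, others 1.96 to 6.92).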

How the results depend on the processing

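The count of 7 genes became 3 with genes of a mean of at least 5. That filter removes Cd4, Cd8a and Cd8b1, and Ifi27l2a was not called with it (limma adjusted p 0.0558). The count was 4 within first number 1 (9 libraries), 11 with edgeR (6 of them among the 7) and 20 with DESeq2 (7 of 7). It ran from 6 to 10 when each library was left out, with 10 without CD4 replicate 5, and was 5 to 9 under the other settings. With mouse as a random block over all 16 libraries the same 7 genes were called. A fixed block, fitted only to the libraries of the 5 mice with both cell types, called 8. This fit changed the call of Ifi27l2a, Odc1 and Hspa1a among the named genes, and whether through pairing or fewer libraries was not tested. The 1 gene of the test between first numbers became up to 3 (range 1 to 3) with a library left out, and the 0 genes of the test between EE and SE remained 0 in every setting run. Ccl5 kept its call in all settings, Nkg7, Cd4 and Cd8a lost it within number 1 alone and Malat1 within number 2 alone, of the settings that tested them. Within number 2 the log2 difference turned to -0.19 for Ifng and to -0.28 for Ptprc. The log2 difference in UMI total turned from 0.13 to -0.31 over all 16 libraries without regard to first number and to -0.27 over the paired mice, none past the threshold. The smallest p that 5 pairs can give is 0.0625. The causes of these changes were not tested. Low UMI totals limit what single libraries with number 1 can show, since 1 UMI there is worth 1.15 to 2.94 normalised counts.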
